A study of Mus musculus with 14 samples.

Results

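The glucocorticoid receptor gene *Nr3c1* and 9 genes around it were followed in lactating mammary tissue. They comprise *Hsd11b1*, which encodes the reductase that regenerates active corticosterone, *Fkbp5* and *Fkbp4*, which encode co-chaperones of the receptor, and the target genes *Tsc22d3*, *Sgk1*, *Zbtb16*, *Klf9*, *Dusp1* and *Errfi1*. The 10 genes were taken by symbol, and all 10 are among the 20550 genes listed for each mouse. Total RNA was collected from mammary glands on day 10 of lactation (L10) of 2 mice labelled WT_wTbrg4, which are heterozygous for the Wap-Tbrg4 allele, with a wt allele on the other chromosome, on a C57BL/6 background. Homozygous embryos die, and the *Wap* promoter is active in the secretory epithelium of pregnancy and lactation. In the Wap-Tbrg4 allele, a CRISPR/Cas9 deletion joins the first exons of *Wap* and *Tbrg4*, so that *Tbrg4* lies under the *Wap* super-enhancer and promoter. Both mice have this genotype and stage, no other group was analysed by RNA-seq here, and the comparison available is that between the mice. The age of the mice and whether they came from one founder were not given in the sources used here.

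The glucocorticoid receptor is held in the cytoplasm by the Hsp90 chaperone machinery, binds corticosterone in mice, and then moves to the nucleus, where it binds glucocorticoid response elements or joins other factors. In mammary epithelium it works together with prolactin-activated STAT5 on milk protein genes, and glucocorticoids are among the hormones that bring about and maintain lactation. *Fkbp5* and *Tsc22d3* are widely used as readouts of receptor activity, and the FKBP51 protein made from *Fkbp5* lowers the hormone affinity of the receptor and thereby closes a feedback loop.

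The values are FPKM, fragment counts normalized to the length of the exons or introns and scaled in each mouse. They can therefore be set side by side between genes of a mouse. The scaling total was not given. Exon FPKM summed to 852961 in replicate 1 and 1788120 in replicate 2, so the mice do not share a common sum. *Wap*, the promoter donor, had an exon FPKM of 172935 and 234774 in replicates 1 and 2, and *Tbrg4*, the gene joined to it, had 314.7 and 291.5, with reads of both alleles together. All 8 markers of secretory epithelium were present in both mice, with 4 higher and 4 lower in replicate 2. The casein genes *Csn2* (108555 and 481937) and *Csn1s1* were more than 2-fold higher, the keratin genes *Krt8* (31.4 and 14.6) and *Krt18* (145 and 57.6) more than 2-fold lower, and the sum was 338491 and 875733. Sums were 152.7 and 97.5 for 6 myoepithelial, 62.3 and 49.9 for 6 endothelial, and 12.5 and 9.8 for 6 leukocyte markers. The myoepithelial marker *Acta2* is listed at 0 in both mice, while *Myh11* had 69.2 and 38.8. Read counts are not given. From 42 and 24 short exons and introns, 1 read was estimated to be worth 100 and 198 FPKM times bp in the 2 mice, which corresponds to about 14600000 and 12500000 reads. The value for replicate 2 is the less certain. With that of replicate 1, which is 1.98-fold smaller, all read numbers of replicate 2 would be 1.98-fold higher. The read numbers below are estimates from these values and RefSeq lengths. The intervals given with them are exact 95% Poisson intervals, which cover counting error only.

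The mean exon FPKM was 1 or more in all 10 genes, as in 9845 genes of the whole list, and 10 or more in 6 of them, where 31.6% of these 9845 genes had such a level. *Fkbp4* and *Nr3c1* were the highest, followed by *Klf9*, and *Dusp1* and *Zbtb16* were the lowest. Between them were *Tsc22d3*, *Errfi1*, *Sgk1*, *Hsd11b1* and *Fkbp5*. The highest gene exceeded the lowest 26.7-fold in replicate 1 and 31.5-fold in replicate 2.

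**Figure D1:**
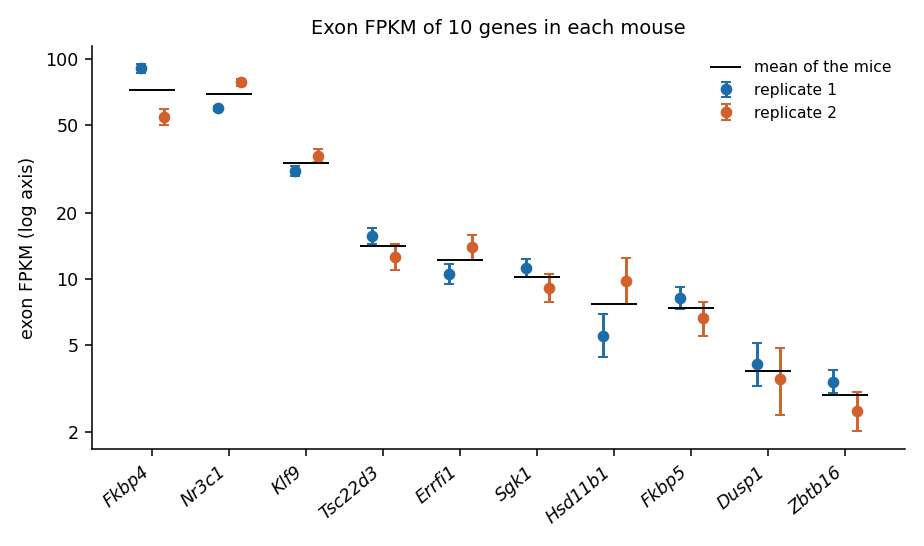
Exon FPKM of the 10 genes in each mouse (points, log axis) with 95% Poisson intervals for counting error and the mean of the 2 mice (lines). *Fkbp4*, *Nr3c1* and *Klf9* stand above the other genes in both mice, and *Dusp1* and *Zbtb16* are below all others.

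In GRCm38, *Nr3c1* occupies 39410545 to 39519421 of chromosome 18 (minus strand) and has 5 RefSeq transcripts. Exons were measured at 59.8 FPKM in replicate 1 (interval 58.1 to 61.6, about 4411 reads) and 78.8 in replicate 2 (interval 76.0 to 81.7, about 2935 reads). The mean was 69.3 ± 13.4 (SD, n = 2), rank 324 of all genes with a usable symbol and above 96.7% of the expressed genes. The intervals of the mice did not overlap, and replicate 2 was higher 1.32-fold. The intron FPKM was 3.7 and 4.4, so that exons and introns were both higher in replicate 2.

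Related steroid receptor genes were far lower than *Nr3c1*. *Nr3c2*, the mineralocorticoid receptor, which binds the same hormone, had an exon FPKM of 1.8 and 1.5, and the ratio of *Nr3c1* to *Nr3c2* was 33.2 and 52.5 in the 2 mice. *Pgr*, the progesterone receptor gene, had 0.1 and 0.2. *Nr3c1* exceeded both of them in both mice by more than the spread between the mice. By 4 values, the exon and the intron level in each mouse on a log2 scale, the genes nearest to *Nr3c1* were *Ss18l2* (distance 0.518), *Lbp* (0.530) and *Dlat* (0.550).

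*Hsd11b1* occupies 193221640 to 193264045 of chromosome 1 (minus strand). Exon FPKM in the 2 mice was 5.5 (interval 4.39 to 6.89, about 80 reads) and 9.8 (interval 7.71 to 12.4, about 72 reads). The mean was 7.65 ± 3.04 (SD, n = 2), and the intervals did not overlap. This 1.78-fold difference was the largest in FPKM among the 10 genes. The intron FPKM was listed at 0.0 and 0.1, and since values carry 1 decimal, these correspond to at most 20 reads in replicate 1 and to 10 to 31 reads in replicate 2. The enzyme of the opposite reaction, encoded by *Hsd11b2*, had 0.1 and 0.2. *H6pd*, which supplies the reductase with NADPH inside the endoplasmic reticulum, had 3.3 and 2.4, below *Hsd11b1* in both mice.

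*Hsd11b1* is also known from fat and stroma, and in whole tissue more cells of a type and more RNA per cell cannot be told apart. Of 6 adipocyte markers 3 were higher in replicate 2, and their summed exon FPKM was 649.9 and 731.1. Of 6 fibroblast markers 3 were higher, with sums of 172.8 and 165.8. *Dcn* was among these, with 42.9 and 78.4, while *Col1a1* had 23.5 and 11.2. The part of these cells in the *Hsd11b1* difference was not tested. The other 7 genes of corticosteroid supply and metabolism were at a mean exon FPKM of 0.5 or below. These were *Serpina6* for the binding globulin, the exporter genes *Abcb1a* and *Abcb1b*, *Srd5a1* for a steroid reductase, and the adrenal enzyme genes *Cyp11b1*, *Cyp11b2* and *Cyp21a1*, of which the last 2 are listed at 0 in both mice.

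*Fkbp4* encodes FKBP52, which aids hormone binding and nuclear transfer of the receptor. It occupies 128430103 to 128438656 of chromosome 6 (minus strand). The mice had 90.8 (interval 86.9 to 94.9, about 1994 reads) and 54.6 (interval 50.4 to 59.2, about 606 reads), a mean of 72.7 ± 25.6 (SD, n = 2). The intervals lay far apart, and replicate 1 was higher 1.66-fold. The intron FPKM was 1.0 and 1.2, about 64 and 39 reads.

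*Fkbp5* occupies 28398753 to 28486149 of chromosome 17 (minus strand). At 8.2 and 6.6 exon FPKM, it was covered by about 318 and 129 reads, with a mean of 7.4 ± 1.13 (SD, n = 2) and overlapping intervals. The ratio of *Fkbp4* to *Fkbp5* was 11.1 in replicate 1 and 8.27 in replicate 2. *Fkbp4* was thus the higher of the pair in both mice by more than the spread between them. The intron FPKM of *Fkbp5* was 0.2 and 0.4, which correspond to about 167 and 169 reads over 83513 bp of introns.

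The receptor binds as a dimer to inverted repeats of AGAACA and TGTTCT with a gap of 3 bases. The full repeat, AGAACA, any 3 bases and TGTTCT, which reads the same on both strands, was searched in the reference at these genes, because *Fkbp5* and *Sgk1* are known to carry functional elements. It occurs at 2 places in the introns of *Fkbp5* and at 1 place in *Sgk1*, and nowhere inside the other 8 genes or within 5000 bp of their start sites. The sites are shown on the plus strand of GRCm38 with the arms of the repeat in capitals. The first *Fkbp5* sequence is chr17:28420314-28420342, and its site lies 65821 bp downstream of the start site. The second is chr17:28442412-28442440, with the site 43723 bp downstream. The *Sgk1* sequence is chr10:21993694-21993722, with the site 182 bp upstream of an annotated start site and inside an intron of longer transcripts.
*Fkbp5* intron, distal: agagcacAGAACAcccTGTTCTgaatgtg
*Fkbp5* intron, proximal: aaagcctAGAACAagcTGTTCTcaaacaa
*Sgk1* upstream of an internal start site: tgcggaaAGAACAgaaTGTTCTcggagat

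The repeat is rare in the genome. Of 25402 windows of 5000 bp to each side of a start site, over all matched genes, 44 (0.173%) contain it, and 3 of the 24 windows of the 10 genes do, all of which share the 1 *Sgk1* site. Among the 32851 RefSeq promoter sequences of 300 bp (GRCm38.p6), 3 contain it, 1 of them that of *Sgk1*. Promoter sequences were found for 8 of the 10 genes. A shorter form, GNACA, any 3 bases and TGTNC, which every full repeat also matches, is found in 15.7% of all windows and in 5 of the 24. Outside the *Sgk1* site these matches are 1 in the first kilobases of *Fkbp5* and 1 ahead of *Dusp1*, outside the gene and 1021 bp upstream of its start site. The *Fkbp5* sequence is chr17:28484945-28484973 and that of *Dusp1* is chr17:26509479-26509507, with the letters of the short form in capitals.
*Fkbp5*, 1190 bp downstream of the start site: caagcgctGTACAcccTGTCCcgagcccc
*Dusp1*, upstream: actctgtgGGACAaacTGTACtcatcaca
Inside the genes, *Zbtb16* holds 7 and *Fkbp5* holds 6 matches to this short form, or 38.0 and 68.7 per Mb of gene. *Sgk1* holds 3, *Errfi1* 1 and *Hsd11b1* 1, or 25.5, 66.3 and 23.6 per Mb. The rate was 27.5 over the 10 genes and 17.6 over all matched genes. *Nr3c1*, *Fkbp4*, *Tsc22d3* and *Klf9* hold none, inside or near their start sites. Binding of the receptor was not measured, and these are matches of letters in the reference.

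Among the target genes, *Klf9*, a Krüppel-like repressor of transcription, was the highest. It occupies 23141226 to 23168129 of chromosome 19 (plus strand). Exons reached 30.9 and 36.3 FPKM, with a mean of 33.6 ± 3.82 (SD, n = 2), above 91.7% of the expressed genes. The counting intervals did not overlap. The paralog *Klf13* had 18.8 and 14.5, below *Klf9* in both mice, and *Klf16* had 2.1 and 1.3.

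*Tsc22d3* encodes GILZ, an anti-inflammatory leucine zipper protein, and occupies 140539528 to 140600522 of the X chromosome (minus strand). The level was 15.7 and 12.6 exon FPKM, about 510 and 207 reads, with a mean of 14.15 ± 2.19 (SD, n = 2). The intervals of the mice overlapped. Its paralog *Tsc22d1* had 7.5 and 11.8, so that *Tsc22d3* was 2.09-fold and 1.07-fold higher in the 2 mice. *Tsc22d2* had 3.2 and 4.6, and *Tsc22d4* had 4.1 and 1.6.

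*Errfi1* encodes MIG6, a feedback inhibitor of EGF receptor signaling. It occupies 150853796 to 150868889 of chromosome 4 (plus strand). Replicate 1 had 10.5 and replicate 2 had 13.9 exon FPKM, with a mean of 12.2 ± 2.40 (SD, n = 2), with intervals that did not overlap. The intron FPKM was 2.0 and 3.3, and both were higher in replicate 2.

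*Sgk1*, a kinase that regulates ion channels and transporters, occupies 21882184 to 21999903 of chromosome 10 (plus strand). Exons had 11.2 and 9.1 FPKM, with a mean of 10.15 ± 1.48 (SD, n = 2), with overlapping intervals. *Sgk2* had 3.1 and 2.0 and *Sgk3* had 0.8 and 1.5, each below *Sgk1* in both mice. The mean of 10.15 lies just above the level of 10, and replicate 2 alone was below it.

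*Dusp1* encodes a phosphatase of MAP kinases and occupies 26505591 to 26508472 of chromosome 17 (minus strand). Low levels of 4.1 and 3.5 exon FPKM were measured, with a mean of 3.8 ± 0.424 (SD, n = 2), from about 80 and 34 reads. The intervals, 3.27 to 5.13 and 2.40 to 4.84, overlapped over most of their length. *Dusp6* was 2.12-fold and 2.09-fold higher than *Dusp1* in the 2 mice. *Dusp5* had 8.3 and 4.1, *Dusp4* had 3.9 and 1.6, and *Dusp2* had 0.0 and 0.1. *Dusp1* is also an immediate early gene. Of 8 other such genes listed, 5 passed a mean exon FPKM of 1, 4 of them lower and 1 higher in replicate 2. The highest were *Ier3* with 32.7 and 9.0, *Btg2* with 21.6 and 14.8 and *Fos* with 8.6 and 6.3, and the sum over the 8 was 69.7 and 35.9. What acts on these genes in the 2 mice was not tested.

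*Zbtb16* encodes PLZF, a zinc finger repressor that is among the strongly glucocorticoid-induced genes in several tissues. It occupies 48651797 to 48836225 of chromosome 9 (minus strand). It was the lowest of the 10 genes in both mice, with 3.4 and 2.5 exon FPKM and a mean of 2.95 ± 0.636 (SD, n = 2), above 27.7% of the expressed genes. About 265 and 98 reads stand behind these values, and the intervals overlapped slightly.

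The order of the levels was only partly the same in the 2 mice. *Fkbp4* and *Nr3c1* exchanged places, and so did neighbors among *Tsc22d3*, *Errfi1*, *Sgk1*, *Hsd11b1* and *Fkbp5*, whose ranges over the mice overlapped. The steps from *Nr3c1* to *Klf9*, *Klf9* to *Tsc22d3*, *Fkbp5* to *Dusp1* and *Dusp1* to *Zbtb16* were in the same direction in both mice. The ranges of these neighbors over the mice did not overlap. The counting intervals of *Dusp1* and *Zbtb16* did overlap in each mouse. They were 3.27 to 5.13 and 3.01 to 3.84 in replicate 1, and 2.40 to 4.84 and 2.02 to 3.04 in replicate 2.

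Intron FPKM, which stands for RNA that has not been spliced, set the genes apart in another way. On the log2 scale, the median ratio between intron and exon FPKM was -4.11 in the 10 genes, compared with -3.52 in the 9535 expressed genes with an intron value above 0. *Errfi1* and *Zbtb16* were at the upper end. Intron FPKM amounted to 19.0% and 23.7% of exon FPKM in *Errfi1* and to 11.8% and 24.0% in *Zbtb16*. Their ratios lay above 91.0% and 87.5% of these 9535 genes. The median of the mean exon FPKM was 11.2 in the 10 genes and 5.7 over all expressed genes. Ratios of genes with a like exon level were not compared.

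*Sgk1*, *Fkbp4* and *Hsd11b1* were at the lower end, above 3.41%, 4.28% and 5.70% of the genes. The intron FPKM of *Sgk1* was 0.1 and 0.0 over 113562 bp, most of which belongs to the longer transcripts, and that of *Fkbp4* was 1.10% and 2.20% of its exon FPKM. *Nr3c1* held a place between these, with 6.19% and 5.58%, and its 101501 bp of introns carried about 3756 and 2256 reads. The intron value of *Dusp1*, 0.3 and 0.6, rests on about 3 reads in each mouse, since its introns span only 940 bp. A difference of this size between the mice was not detectable in *Dusp1* introns at this depth.

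Genes on the other strand overlap the introns of *Fkbp5* (*Gm22146*, 9129 bp) and *Zbtb16* (*Gm32280*, 4607 bp) and the 5′ part of *Errfi1* (*1700045H11Rik*, 1154 bp), and *Gm46215* overlaps 95 bp of *Sgk1*. On the same strand, the pseudogene *Gm18511* (800 bp) lies within *Sgk1* and *Mir1192* (121 bp) within *Klf9*. The library kit keeps strand, but the strand setting of the counting was not given in the sources used here. Their share in the intron values was not tested.

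**Figure D2:**
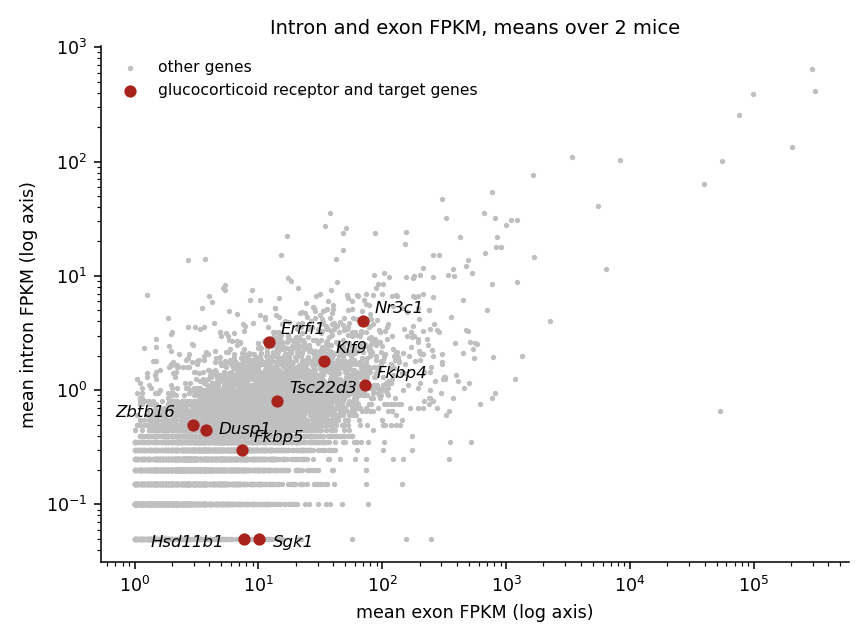
Mean intron FPKM (vertical, log axis) against mean exon FPKM (horizontal, log axis) over the 2 mice for expressed genes whose intron value is above 0 (gray) and the 10 genes (red). *Errfi1* and *Zbtb16* have the highest ratios of intron to exon FPKM among the 10 genes. *Sgk1* and *Hsd11b1* lie at the lowest intron value the rounding allows.

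Differences between the 2 mice are given as log2(exon FPKM + 1) of replicate 2 minus that of replicate 1, a scale that understates the change of low genes. None of the 10 genes (0 of 10) was more than 2-fold apart. Over all 9845 expressed genes 5.95% were, with 1.09% higher and 4.87% lower in replicate 2. *Hsd11b1* (0.73), *Nr3c1* (0.39), *Errfi1* (0.37) and *Klf9* (0.23) were higher in replicate 2. The other 6 were lower, from -0.18 for *Dusp1* to -0.72 for *Fkbp4*. Their median was -0.23, compared with -0.08 over all genes. Counting intervals did not overlap in 5 genes, namely *Nr3c1*, *Hsd11b1*, *Fkbp4*, *Klf9* and *Errfi1*, where they did not overlap in 38.9% of 9725 expressed genes. With the read value of replicate 1 used for both mice this count was 8 of 10, compared with 46.3% of these genes. With 1 mouse on each side no test was made, and the p-value of such a difference cannot be given.

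**Figure D3:**
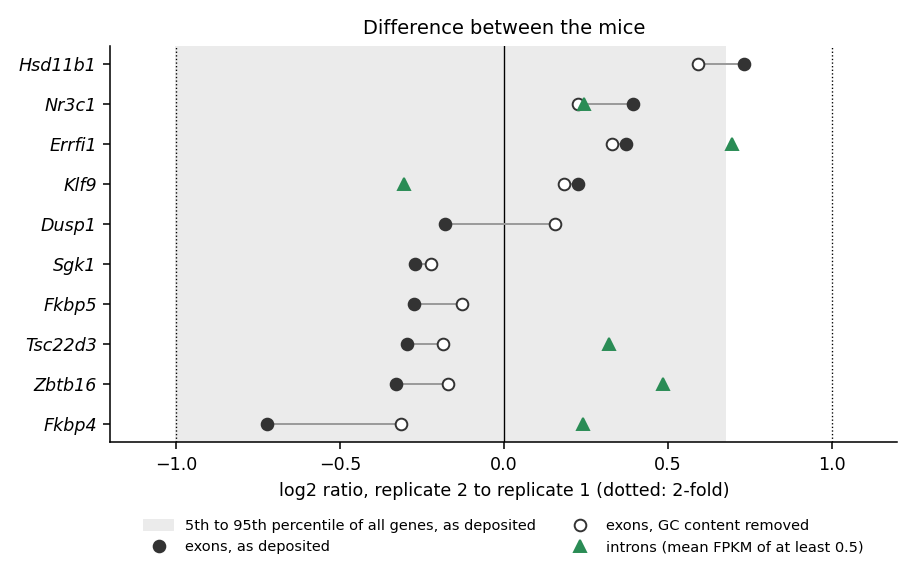
Log2 ratio of replicate 2 to replicate 1 for each of the 10 genes, for exons as deposited (filled), exons with the trend over GC content removed (open) and introns with a mean FPKM of at least 0.5 (triangles). All filled points lie within the dotted 2-fold lines. All but *Hsd11b1* lie within the band between the 5th and 95th percentiles of all genes as deposited, -1 to 0.67. By construction, this band leaves out the lowest 5% and the highest 5% of all genes. All open points, *Hsd11b1* included, lie between the same percentiles of all genes with the GC trend removed, -0.61 to 0.64 (not drawn).

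The GC content of the exons moved with these ratios. Across expressed genes, which are not independent replicates and share the libraries, Spearman's rho between the log2 ratio and GC content was -0.658. The 4 genes that were higher in replicate 2 had the lowest GC content of the 10, from 45.1% in *Nr3c1* to 47.5% in *Klf9* and *Errfi1*. The 6 that were lower had from 49.9% in *Sgk1* to 55.5% in *Fkbp4*. Expressed genes within 1 percentage point of the GC content of *Fkbp4* had a median log2 ratio of -0.42, compared with -0.72 for *Fkbp4* itself. Those near *Nr3c1* had 0.18, compared with 0.39, and those near *Hsd11b1* had 0.15, compared with 0.73.

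With the trend removed by a lowess fit, the median of the 10 genes was 0.01 and 0 of 10 were more than 2-fold apart, where 1.91% of 9725 genes were, 1.13% higher and 0.781% lower in replicate 2. *Hsd11b1* kept the highest value (0.59) and *Fkbp4* the lowest (-0.31). *Dusp1* turned from -0.18 to 0.16. Rescaling each mouse to a common summed FPKM shifted the median of all genes to -0.92. On that scale all 10 genes were lower in replicate 2, with a median of -1.01, close to the shift of all genes, and 5 of 10 were past 2-fold, as 4139 of 9538 genes were.

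**Figure D4:**
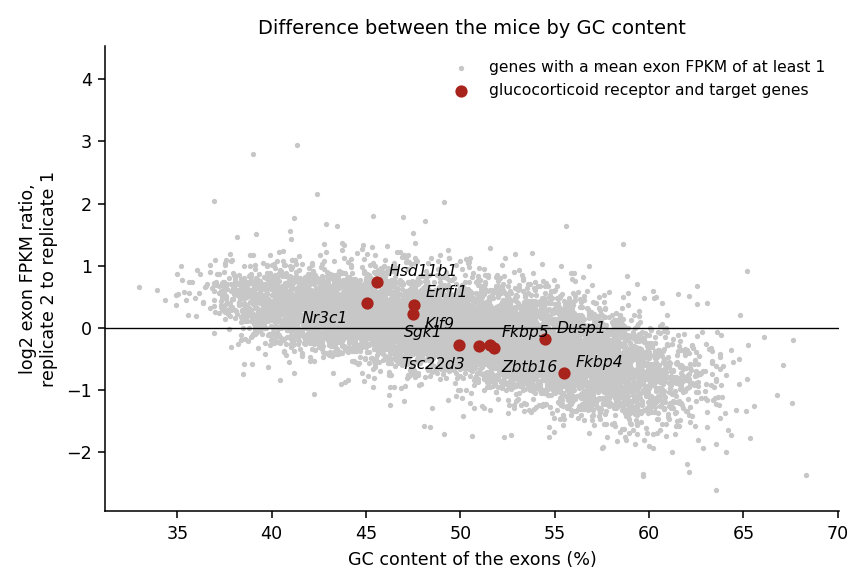
Log2 exon FPKM ratio of replicate 2 to replicate 1 (vertical) against the GC content of the exons in percent (horizontal) for expressed genes (gray) and the 10 genes (red). The ratios decline with GC content. The values of the 10 genes run from 0.39 for *Nr3c1* at 45.1% GC to -0.72 for *Fkbp4* at 55.5%. *Hsd11b1*, at 0.73, lies above 0.15, the median of expressed genes within 1 percentage point of its GC content.

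Exon and intron differences went the same way in some genes and not in others. A mean intron FPKM of at least 0.5 was reached by 6 of the 10 genes, 0 of 6 of which were more than 2-fold apart, where 6.52% of 4220 genes were, 2.65% higher and 3.86% lower in replicate 2. Their median log2 ratio with 0.1 added was 0.28, compared with 0.00 over these genes. *Nr3c1* (0.24) and *Errfi1* (0.70) were higher in replicate 2 in introns as in exons. *Fkbp4* (0.24), *Tsc22d3* (0.32) and *Zbtb16* (0.49) were higher in introns and lower in exons, and *Klf9* (-0.30) was lower in introns and higher in exons. In *Fkbp4* the intron difference is that between 1.0 and 1.2, from fewer than 100 reads in each mouse.

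The wider pathway was examined in lists of genes with known roles. Of 80 further genes found in the files, 65 were expressed at a mean of 1 or more, and 1 of 65 was more than 2-fold apart, compared with 5.95% of all genes. This gene, *Stub1*, which encodes a ubiquitin ligase that acts with chaperones, was lower in replicate 2 (23.3 and 10.7). With a pseudocount of 0.1 the count was 6 of 65 (9.23%), 5 of them lower in replicate 2, compared with 11.2% of all genes. With the GC trend removed the 1 gene past 2-fold was *Tsc22d1*, which was higher, compared with 1.91% of all genes.

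In the Hsp90 chaperone cycle, all 15 genes, *Fkbp4* and *Fkbp5* included, were expressed, 12 of them at a mean of at least 10. *Hsp90ab1* was the highest, with 333.4 and 223.2, followed by *Bag1* with 129.2 and 93.3 and *Fkbp4*. In this list 12 genes were lower and 3 higher in replicate 2, with a median log2 ratio of -0.39, which was -0.14 with the GC trend removed. *Hsp90aa1*, *Hspa8* and *Ptges3*, and the heat shock genes *Hspb1* and *Hspe1*, each have 1 near-identical copy elsewhere in the genome, so that their values are uncertain. By the rule used here the 10 genes themselves have none, though copies with gaps may have been missed.

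All 14 coregulator genes were expressed, from 1.05 to 44.05. *Hdac3*, a deacetylase of the corepressor complex, was the highest (42.7 and 45.4), followed by the corepressor *Ncor1* (22.8 and 23.9) and the acetyltransferase *Crebbp* (14.1 in both). Their median log2 ratio was 0.08, with 9 genes higher and 4 lower in replicate 2.

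Of 32 other glucocorticoid-responsive genes, 30 were found and 25 had a mean of at least 1. *Lcn2*, a secreted iron-siderophore binding protein, had 293.0 and 455.3. *Glul*, the glutamine synthetase gene, had 146.0 and 154.2, and *Lpin1*, a phosphatidate phosphatase gene, had 102.6 and 124.5. None of the 10 genes reached these levels. Of the 25, 10 were higher and 15 lower in replicate 2, with a median log2 ratio of -0.13, and 0 of 25 were past 2-fold. Of the heat shock genes 5 were found, *Hspe1* (14.2 and 14.0), *Hspd1* (12.3 and 12.9) and *Hsph1* (6.5 and 6.7) being the highest. Their sums were 40.2 and 40.8, and 0 of 5 were past 2-fold, where 5.95% of all genes were. With the GC trend removed, *Hspb1* was (0.9 and 1.5 FPKM).

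**Figure D5:**
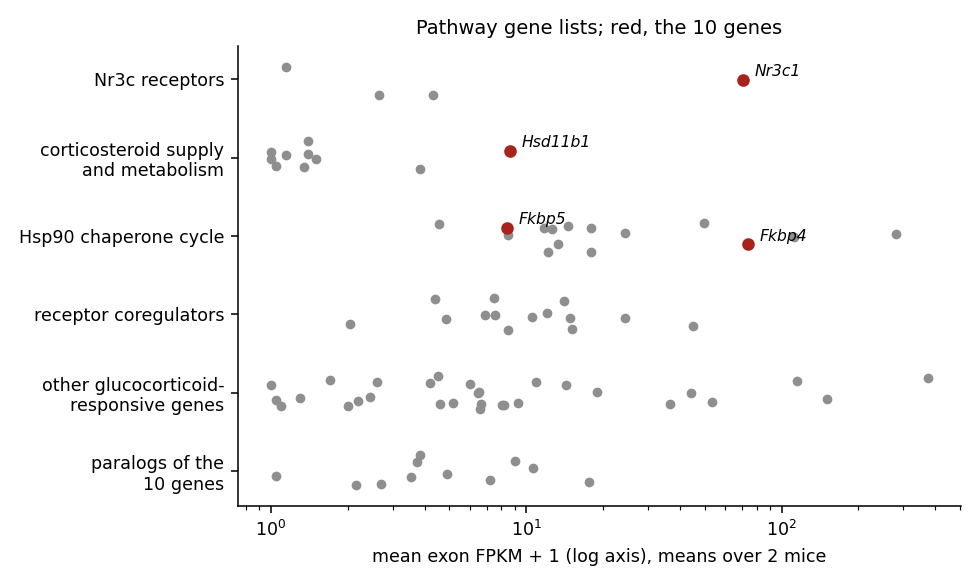
Mean exon FPKM + 1 over the 2 mice (horizontal, log axis) of the genes in 6 lists, with the 10 genes in red where a list holds them. *Nr3c1* is far to the right of the other receptors, *Hsd11b1* is the highest of its list, and *Fkbp4* lies near the upper end of the chaperone cycle while *Fkbp5* lies near its lower end.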

How the data were processed

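Total RNA of 2 L10 mammary glands was sequenced by the authors from TruSeq stranded libraries. The authors mapped reads to mm10 with STAR, counted them with HTSeq on collapsed exons of UCSC known genes and on the introns between them, and generated FPKM with DESeq2. The deposited FPKM carry 1 decimal. The scaling total, the versions and the treatment of multiply mapped reads were not given in the sources used here. The 12 ChIP-seq samples were not analysed here.

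Of the listed genes, 35 without a usable symbol were left out. Lengths, GC content and positions came from curated RefSeq transcripts on GRCm38 (98.2% of genes matched by symbol). Short exons and introns (60 to 400 bp) take FPKM values in steps. The value of 1 read was set to that which gave the most whole reads within 0.05 FPKM, beyond those rounding alone would give. Whole reads resulted for 90.5% and 79.2% of these features, and rounding alone covers 27.3% and 14.2%. This estimate was chosen after seeing the data. Log2 ratios between the mice used FPKM + 1 for exons with a mean of at least 1. For introns with a mean of at least 0.5 they used FPKM + 0.1. The log2 ratio of intron to exon FPKM used the means over the mice with 0.1 added to each. Its background was the expressed genes with an intron value above 0. The lowess fit over GC content used 30% of the genes. Near-identical copies were places with at least 50% of the longest transcript at an identity of at least 95% by minimap2 2.31. The best other place of *Hsp90ab1* aligned over 98.9% at an identity of 49.9%, and that of *Tsc22d3* over 76.6% at 65.5%. Gaps may lower such identities, so copies with gaps may have been missed. Copies of genes other than the 10 were searched in the same way for the pathway lists.

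With 2 mice of one group no test was made. Means are given ± SD. The 10 genes, the lists and the alternatives were chosen with earlier results of these data known. Named are the 10 genes, all genes in the lists of receptors, corticosteroid supply and paralogs, the 3 highest of each other list with those of at least 10 FPKM more than 2-fold apart, and the 3 genes nearest to *Nr3c1*. One gene that this rule names is not reported here. Of the marker lists, only genes beside a result are named. *Acta2*, *Hsp90aa1*, *Hspa8*, *Hspb1* and *Ptges3* were named after their values were seen. The read estimate and the lowess fit were tested on simulated data. Computations used statsmodels 0.14.6 and scipy 1.17.1 under Python 3.11.15, with pandas 2.3.3 and numpy 2.4.6, and plots used matplotlib 3.10.9.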

Additional observations from a re-analysis of the deposited data

How the results depend on the processing

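Of 29 alternatives for counts and medians, 17 left the value within its tolerance (1.5-fold for a count, 0.1 for a log2 ratio, 1 SD over the mice for the intron to exon ratio). Rescaling each mouse to a sum of 1000000 moved the count of the 10 genes more than 2-fold apart from 0 to 5, their median log2 ratio to -1.01 in exons and -0.72 in introns, and the count of other pathway genes to 32 of 63 (50.8%), where 43.4% of all genes were past 2-fold. That count was 6 with a pseudocount of 0.1 (11.2% of all genes) and 0 after centring (5.38% of all genes). The exon median was -0.023 among the 6 genes with a mean of at least 10 and 0.013 with the GC trend removed. The intron median was 0.18 with a pseudocount of 1. The median intron to exon ratio (log2) ranged from -4.14 to -3.94 with either mouse left out and was -3.06 with a pseudocount of 1. With the read value of replicate 1 used for both mice, an alternative chosen after seeing the data, 8 genes had intervals that did not overlap (46.3% of all genes). The count of genes with a mean of at least 10 was 4 after rescaling and 5 or 6 with either mouse left out. Among log2 ratios of single genes, 5 of 56 alternatives changed the sign, 4 of them under rescaling and 1 (*Dusp1*) with the GC trend removed. The causes of these changes were not tested. With 2 mice, the FPKM of a single gene without one of them always stays within 1 SD of the mean and shows no stability. The median intron to exon ratio without replicate 1 (-3.94) moved by more than its SD over the mice of 0.144. No paired analysis was possible because all RNA-seq samples belong to one group. The rounding to 1 decimal limits intron values near 0.1, and about 3 reads stand behind the *Dusp1* introns.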
